A study of Homo sapiens with 6 samples.

Results

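The genes described here build ribosomes. They comprise subunits and cofactors of RNA polymerase I, which transcribes the ribosomal RNA precursor, and nucleolar factors that cut, modify, fold and package that precursor into the 40S and 60S subunits. The list was named by function, but with earlier results of these data known, and holds 44 genes. A probe set assigned to 1 gene alone was found for 42 of them, and all 42 were bright enough to be tested, among 13506 tested genes of 19775 measured. The levels of EBNA1BP2 and DDX18 were not analysed here, and EBNA1BP2 enters only the promoter counts below. Where a gene had several probe sets, the one with the highest mean over the 6 arrays stood for it.

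Messenger RNA of A375, an established human melanoma line driven by mutant BRAF, was measured on 6 Affymetrix U133 Plus 2.0 arrays. All 6 arrays come from cells whose EIF4B gene was knocked out by CRISPR. EIF4B encodes eIF4B, a protein that binds RNA and stimulates eIF4A, the helicase that opens mRNA leaders for translation. The knockout cells then received, by lentivirus, either LacZ as a negative control (KO/LacZ, called the knockout line below) or wild-type eIF4B (KO/eIF4B, called the rescued line). Each line was given the DMSO vehicle, or vemurafenib at 10 µM with harvest at 6 h or at 18 h. This drug blocks the mutant BRAF kinase and thereby lowers signalling through ERK. The promoter that drives the transgene and whether either line is 1 clone are not given in the sources used here. Unedited A375 cells were not analysed here.

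Each combination of line and treatment has 1 array, so the error of a drug effect is the disagreement between the 2 lines. Whether separate cultures were used is not stated in the labels. P-values therefore measure only the spread between these arrays, which may be technical. The vehicle arrays carry no time, so time in culture and drug cannot be told apart. All levels are log2 of the deposited RMA intensity, array medians lay between 5.196 and 5.221, and all changes are differences of such levels, given with the standard error of the fit (SE). A gene was called lower or higher where limma's adjusted p (Benjamini-Hochberg over the 13506 genes) was under 0.05. The 6 h and 18 h comparisons use the same vehicle arrays. In RNA from whole cultures, fewer cells of a type and less RNA per cell cannot be told apart.

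EIF4B itself read 8.40, 8.53 and 8.53 in the knockout line (vehicle, 6 h, 18 h) and 10.07, 10.14 and 10.28 in the rescued line, a difference of -1.68 (SE 0.05, adjusted p = 0.0056 by limma), while its other 2 probe sets differed by 0.19 and 0.17. Which probe sets read the knockout transcript or the transgene is not given in the sources used here, and leaving out any drug-treated array ended this call (adjusted p = 0.062 or 0.082). The melanocyte lineage genes SOX10 and MIA had mean levels of 10.27 and 11.70, while the pigment genes MLANA, TYRP1 and GPR143 were dim at 4.88, 3.55 and 4.45. Of the 7 tested of 10 melanoma line markers, MITF (1.63) and MIA (0.38) rose at 18 h and 0 fell, and at 6 h MITF rose by 1.01 and SOX10 fell by 0.63. The summed linear intensity of the 10 was 5400 to 5690 under vehicle, 5110 to 5580 at 6 h and 6780 to 7190 at 18 h. The blood marker PTPRC and the epithelial markers EPCAM and CDH1 had means of 3.05, 2.60 and 3.14. The fibroblast matrix genes DCN and LUM rose at 18 h by 1.78 and 2.49, 2 of the 4 tested of 5 fibroblast markers, with PDGFRA dim at 4.31. The summed linear intensity of the 5 fibroblast markers went from 450 to 558 under vehicle to 1030 to 1320 at 18 h. KRT14 rose by 1.45, 1 of 2 tested of 5 epithelial markers, whose sum went from 548 to 711 under vehicle to 1300 to 1870 at 18 h. Blood markers summed to 198 to 227 under vehicle and 145 to 153 at 18 h, and endothelial markers to 114 to 118 and 100 to 119. The part of these genes in the results below was not tested.

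Ribosome assembly starts in the nucleolus, where RNA polymerase I and its initiation factors RRN3 and UBTF transcribe the rRNA precursor. The UTP-A and UTP-B complexes and the U3 snoRNP bind the emerging transcript and form the small-subunit processome, from which the 40S precursor is released, and a separate set of factors builds the 60S precursor. Growth signals, ERK among them, are known to raise polymerase I activity, and the transcription factor MYC, which binds the E-box CACGTG with its partner MAX, is a known activator of many ribosome biogenesis genes.

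The E-box is the motif, of 13 searched, in which these genes stood furthest from other promoters, so 6 start regions are shown, 5 from genes that fell at least 2-fold at 18 h and 1 from FBL, which was not called. Each line gives 90 bases of the RefSeq start region in GRCh38.p14, 5′ to 3′ on the gene's strand, 70 before the transcription start and 20 of the first exon, with CACGTG in capitals.
LYAR, chr4:4290002-4290091, minus strand: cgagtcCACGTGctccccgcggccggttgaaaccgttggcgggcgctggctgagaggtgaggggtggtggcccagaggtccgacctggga
MRTO4, chr1:19251735-19251824, plus strand: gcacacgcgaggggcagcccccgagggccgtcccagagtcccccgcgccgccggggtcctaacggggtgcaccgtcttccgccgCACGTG
PNO1, chr2:68157818-68157907, plus strand: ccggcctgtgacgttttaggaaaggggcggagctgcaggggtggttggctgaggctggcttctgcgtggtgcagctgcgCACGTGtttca
WDR43, chr2:28894597-28894686, plus strand: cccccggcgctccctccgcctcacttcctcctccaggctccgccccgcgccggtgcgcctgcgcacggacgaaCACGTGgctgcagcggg
RRP9, chr3:51941885-51941974, minus strand: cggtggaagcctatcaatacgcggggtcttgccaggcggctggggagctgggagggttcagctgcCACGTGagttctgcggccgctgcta
FBL, chr19:39846360-39846449, minus strand: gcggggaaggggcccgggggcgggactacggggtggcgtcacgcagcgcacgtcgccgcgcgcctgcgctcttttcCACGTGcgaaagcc

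Over windows of 250 bases before to 50 after the start, 19 of the 38 members in the RefSeq promoter table held CACGTG on either strand, 50%, beside 12.3% of the other tested genes (1334 of 10821). Other ribosome biogenesis genes held it in 25.5% of cases (28 of 110) and cytosolic ribosomal protein genes in 6.25% (4 of 64). Of the 20 matches, 18 lay within 50 bases of the start. The 13 that lay after it could not lie further off, as the window ends there. Positions in other tested genes were not compared. The ETS-type motif CCGGAAGT occurred in 23.7% of members, against 9.22% of other tested genes and 25.5% of other ribosome biogenesis genes. The NRF1 motif occurred in 7.89% of members and 2.5% of other tested genes, and CTCGCGAG, the core of the ZBTB33-type motif, in 7.89% and 2.21%. The GC box GGGCGG (73.7% against 74.4%), CCAAT (39.5% against 42.8%) and TATAAA (7.89% against 8.8%) had close shares in members and other tested genes, and median GC content was 64.0% against 64.3%. The related E-box CACGCG was in 34.2% of members and 21.4% of other tested genes, and CATGTG in 5.26% and 10.1%. The shares of the remaining motifs were 2.63% and 0.906% for the full ZBTB33-type motif, 2.63% and 3.62% for the cyclic AMP response element TGACGTCA, and 5.26% and 5.91% for the YY1-type motif GCCATNTTG. A second YY1-type motif was in 2.63% and 2.18%. These are matches of letters in a window, given as a description, and the motifs were chosen after shares had been seen. DDX18, NOLC1, NOP58, RRP12, RRP1B and RRS1 are outside the table.

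**Figure D1:**
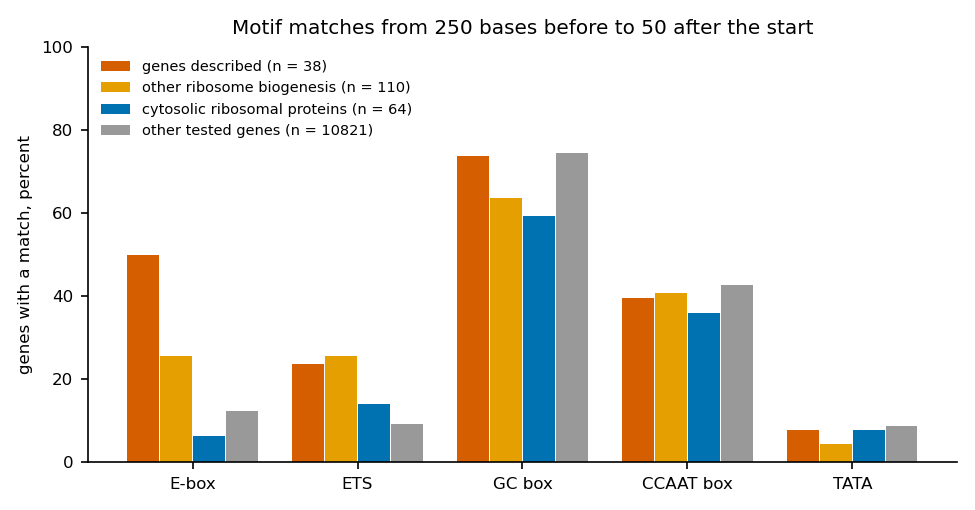
Bars from 0 give the percent of genes (vertical axis) with a match to each of 5 motifs in their start windows, for the members, other ribosome biogenesis genes, cytosolic ribosomal protein genes and other tested genes. The E-box bar is at 50% for the members and 12.3% for other tested genes, while the GC box bars are at 73.7% and 74.4%.

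Among the 37 measured members with a window, the 18 with CACGTG had a median change of -0.89 at 18 h, and the 19 without it -0.49. In each group 17 genes were lower at 18 h. At 6 h the medians were -0.28 and -0.15, with 7 and 4 genes lower. The split is a description with no test. FBL holds the motif with its first base at position 7 after the start and did not pass the threshold, while UTP15 and NOP16, which fell by 1.28 and 1.18, have none in their windows.

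After 18 h of vemurafenib nearly the whole list was lower. Of the 42 genes, 39 were lower than vehicle and 0 were higher (limma), a share of 92.9% where 23.3% of all tested genes were lower and 28.1% higher. The median change was -0.66, from -1.62 for LYAR to -0.06 for UBTF, beside 0.01 over all tested genes. In all 42 genes both 18 h arrays lay below both vehicle arrays, which held for 34% of tested genes. A fall of at least 1 log2 unit, that is 2-fold, occurred in 8 members, 19%, against 3.12% of tested genes. At 6 h the fall was smaller: 12 genes were lower and 0 higher, 28.6% of members where 8.82% of tested genes were lower and 7.34% higher, with a median of -0.17 beside 0.03 over all tested genes. Both 6 h arrays lay below both vehicle arrays in 27 members, 64.3% against 24.2% of tested genes.

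**Figure D2:**
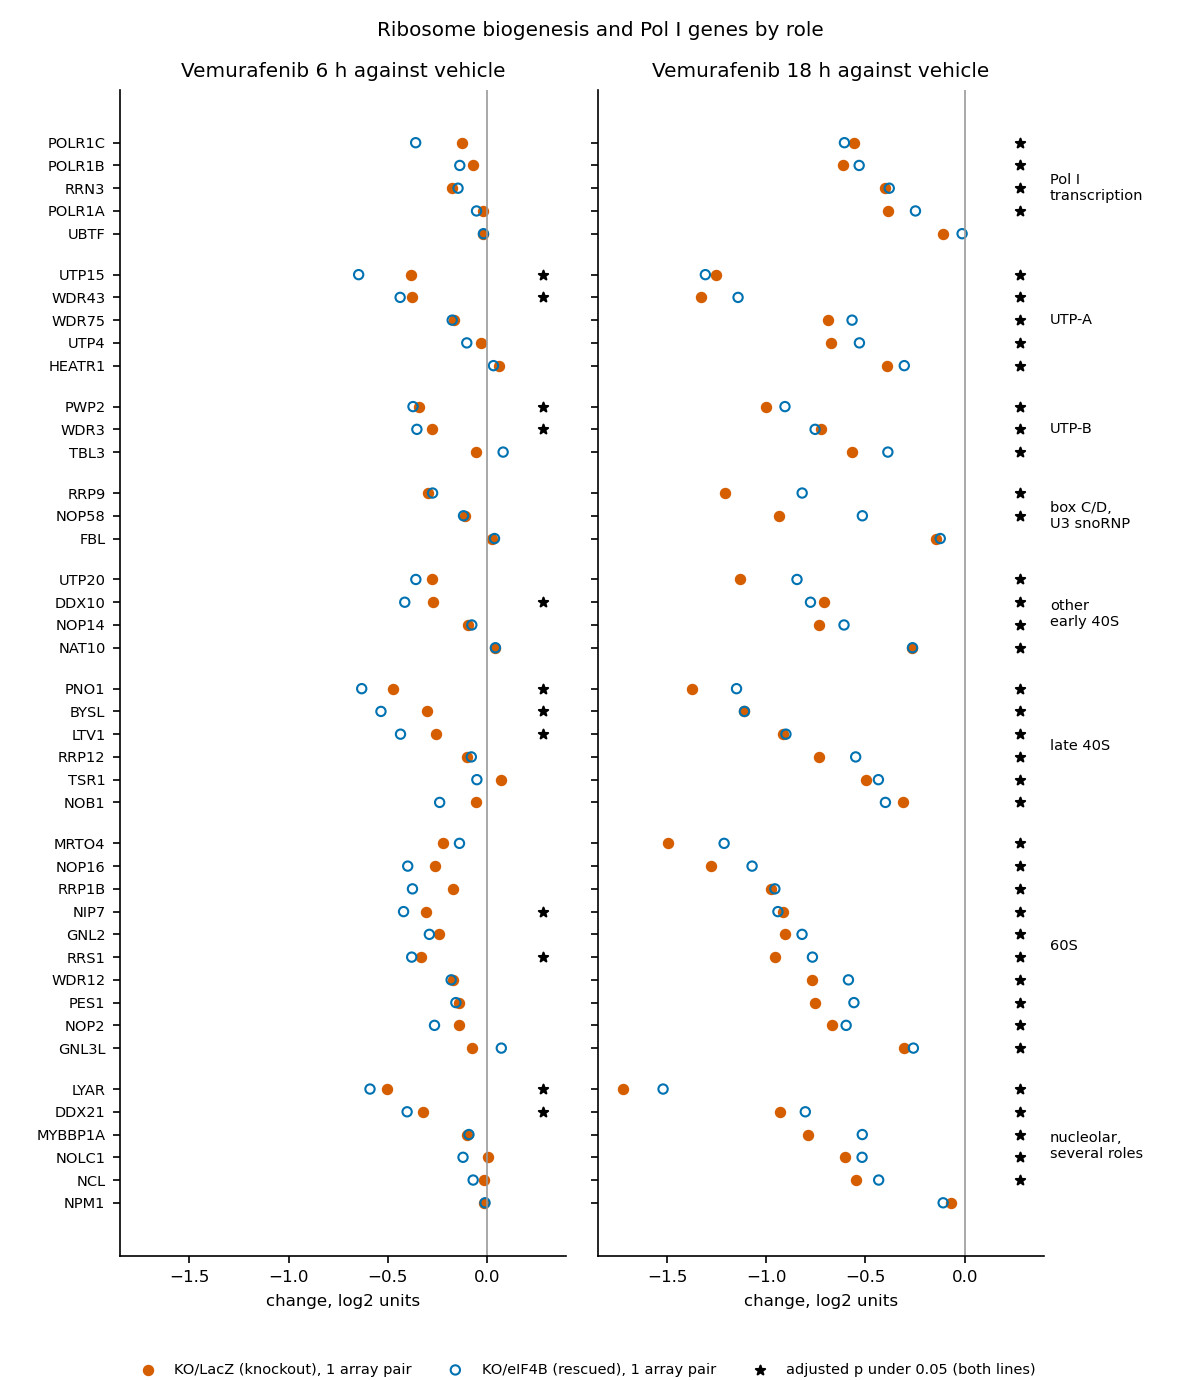
Change from vehicle in log2 units (horizontal axes) of each of the 42 genes, by role, at 6 h (left) and 18 h (right), with 1 filled point for the knockout and 1 open point for the rescued line, each from 1 pair of arrays. Stars mark the 12 genes at 6 h and the 39 at 18 h with an adjusted p under 0.05 in the fit over both lines.

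The role classes below hold listed genes only, and further genes of the same complexes or stages are counted among the other ribosome biogenesis genes. On the brightest probe sets the RNA polymerase I group had the median nearest to 0 of the role classes, -0.39 at 18 h. By these probe sets 4 of 5 genes were lower at 18 h and 0 at 6 h. POLR1C, a subunit shared by polymerases I and III, read 9.07 in the knockout and 9.15 in the rescued line under vehicle, 8.94 and 8.79 at 6 h, and 8.51 and 8.54 at 18 h. It fell by 0.58 at 18 h (SE 0.08, adjusted p = 0.0029). A nearly as bright POLR1C probe set (mean levels 8.79 and 8.83) fell by 0.35 at 6 h and 0.81 at 18 h. Its adjusted p was 0.037 and 0.00082 (limma, over the single-gene probe sets). Further POLR1B probe sets with mean levels of 7.90 and 7.41 fell by 0.27 and 0.28 at 6 h (adjusted p = 0.046 and 0.043). The dimmest POLR1B probe set did not pass at 6 h (adjusted p = 0.22), nor did any of POLR1A or UBTF. POLR1B, the second largest subunit, fell by 0.57 (adjusted p = 0.0018), RRN3 by 0.39 (adjusted p = 0.004) and POLR1A, the largest subunit, by 0.32 (adjusted p = 0.015). The exception was UBTF, the factor that binds along the rDNA repeats and keeps them open. Its levels were 8.10 and 8.01 under vehicle, 8.08 and 7.996 at 6 h, and 7.99 and 8.001 at 18 h, so that the 6 h arrays overlapped those of the other treatments and the 18 h arrays lay just under vehicle. The change of UBTF was -0.06 (95% interval -0.22 to 0.10, adjusted p = 0.46). Of its 4 further probe sets, 3 changed by -0.10 to -0.16 without passing the threshold, and the dimmest (mean level 5.10) changed by -0.44 (adjusted p = 0.0092 over the single-gene probe sets), and the mean of the gene's probe sets by -0.18 (adjusted p = 0.041).

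The UTP-A complex binds the nascent precursor first and is also linked to its transcription. Of its listed genes, 5 of 5 were lower at 18 h, with a median of -0.63, and 2 at 6 h. UTP15 read 8.86 (knockout) and 8.996 (rescued) under vehicle, 8.48 and 8.35 at 6 h, and 7.61 and 7.69 at 18 h. Each time point lay wholly below the one before it in both lines. The change was -0.52 at 6 h (SE 0.08, adjusted p = 0.019) and -1.28 at 18 h (SE 0.08, adjusted p = 0.00044), a 2.43-fold fall. WDR43 had the same order, with 10.00 and 9.91 under vehicle, 9.62 and 9.47 at 6 h, and 8.67 and 8.77 at 18 h. It fell 2.36-fold at 18 h (-1.24, SE 0.08, adjusted p = 0.00044). The other members changed less: WDR75 by -0.63, UTP4 by -0.60 and HEATR1, the large scaffold subunit, by -0.35 (adjusted p = 0.0077). Further HEATR1 probe sets fell more, one nearly as bright (mean levels 10.79 and 10.80) by 0.54. Those with mean levels of 9.17 and 6.20 fell by 0.42 and 0.93.

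The UTP-B complex joins next, and all 3 of its listed genes were lower at 18 h (median -0.74). PWP2 read 9.29 and 9.16 under vehicle, 8.95 and 8.78 at 6 h, and 8.29 and 8.25 at 18 h. It was lower at 6 h by 0.36 (SE 0.06, adjusted p = 0.025) and at 18 h by 0.95 (SE 0.06, adjusted p = 0.00047). Its lines moved side by side, the knockout above the rescued at each time. WDR3 changed by -0.32 and -0.74 at the same times, while TBL3 changed by 0.01 at 6 h and fell by 0.48 at 18 h.

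The box C/D group guides and carries out methylation of rRNA, and U3, its best known member, is needed for the first cuts. RRP9, the U3-specific WD repeat protein, read 7.94 and 7.95 under vehicle, 7.64 and 7.67 at 6 h, and 6.73 and 7.13 at 18 h, a fall of 1.01 at 18 h (SE 0.11, adjusted p = 0.0015). NOP58, a core scaffold protein, fell by 0.73 (SE 0.12, adjusted p = 0.0058). The knockout array was the lower of the pair at 18 h for both genes. FBL, the methyltransferase of the same particles, read 11.90 and 11.83 under vehicle, 11.93 and 11.86 at 6 h, and 11.76 and 11.70 at 18 h. Its change of -0.13 (95% interval -0.28 to 0.01) did not pass the threshold (adjusted p = 0.11), although both 18 h arrays were below both vehicle arrays.

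Among the other early 40S factors all 4 listed genes were lower at 18 h, with a median of -0.71. UTP20, a large helical scaffold of the processome, read 10.01 and 9.78 under vehicle, 9.74 and 9.42 at 6 h, and 8.88 and 8.94 at 18 h, a fall of 0.99 (SE 0.10, adjusted p = 0.0013). The knockout 6 h array (9.74) lay only just under the rescued vehicle array (9.78), and the 18 h arrays lay far below both. The helicase DDX10 fell by 0.34 at 6 h (adjusted p = 0.028) and 0.74 at 18 h. NOP14 fell by 0.67 at 18 h and NAT10, which acetylates the small-subunit rRNA, by 0.26 (adjusted p = 0.014).

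The late 40S factors carry the precursor to the cytoplasm and finish it. Of those listed, 6 of 6 were lower at 18 h (median -0.77), 3 of them already at 6 h. Among 39 tested 40S genes outside the list, 33 were lower at 18 h and 1, RIOK3, was higher. PNO1, which holds the end of the precursor until NOB1 cuts it, read 10.78 in both lines under vehicle, 10.31 and 10.15 at 6 h, and 9.41 and 9.63 at 18 h. It fell by 0.55 at 6 h (SE 0.10, adjusted p = 0.026) and by 1.26 at 18 h (SE 0.10, adjusted p = 0.00069). The lines matched closely under vehicle and differed by -0.22, knockout minus rescued, at 18 h. BYSL, the human bystin, read 9.37 and 9.41 under vehicle, 9.07 and 8.87 at 6 h, and 8.26 and 8.30 at 18 h, a 2.16-fold fall (-1.11, SE 0.08, adjusted p = 0.00059). LTV1, an export adaptor, fell by 0.91 and the nuclease NOB1 by only 0.36 (adjusted p = 0.01). TSR1 changed by 0.01 at 6 h and by -0.46 at 18 h. RRP12, also a transport factor, fell by 0.64 on its brightest probe set, but the mean of its probe sets changed by -0.09 (adjusted p = 0.23), and of its further tested probe sets one was lower by 0.46 (adjusted p = 0.0053), one changed by 0.00069 and one was higher by 0.31 (adjusted p = 0.023).

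The 60S group had the lowest class median, -0.86, and 10 of its 10 listed and measured genes were lower at 18 h. MRTO4, a placeholder for a protein of the ribosomal stalk, read 10.57 and 10.52 under vehicle, 10.35 and 10.38 at 6 h, and 9.08 and 9.31 at 18 h. Most of its fall came after 6 h: the change was -0.18 at 6 h (adjusted p = 0.21) and -1.35 at 18 h (SE 0.09, adjusted p = 0.00041). NOP16 read 11.81 and 11.74 under vehicle, 11.54 and 11.34 at 6 h, and 10.53 and 10.67 at 18 h, a fall of 1.18 (SE 0.10, adjusted p = 0.00071). Another NOP16 probe set fell by 1.25 (adjusted p = 8e-04), while the other two, with mean levels of 5.63 and 5.58, changed by 0.06 and 0.05. RRP1B fell by 0.97, NIP7 by 0.93, and the GTPase GNL2 and RRS1, a loader of the 5S particle, by 0.86 each. PES1 and WDR12, partners in the PeBoW complex that is needed to process the large-subunit rRNA, fell by 0.66 and 0.68. NOP2, a methyltransferase, fell by 0.63, and the GTPase GNL3L by 0.28 (adjusted p = 0.018), the smallest called fall of the class.

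The last class holds abundant nucleolar proteins with several roles, of which 5 of 6 were lower at 18 h (median -0.61). LYAR, a zinc-finger protein that promotes rRNA processing, read 11.15 and 11.02 under vehicle, 10.64 and 10.43 at 6 h, and 9.43 and 9.50 at 18 h. Its fall of 1.62 (SE 0.09, adjusted p = 3e-04), or 3.07-fold, was the largest of the 42, and a further LYAR probe set changed by -1.66. DDX21, a helicase that links polymerase I and II transcription, fell by 0.87, MYBBP1A by 0.65, NOLC1 by 0.56 and NCL, nucleolin, by 0.49. NPM1, nucleophosmin, read 13.77 and 13.79 under vehicle, 13.75 and 13.78 at 6 h, and 13.70 and 13.68 at 18 h. The groups did not overlap at 18 h, but the change of -0.09 (95% interval -0.24 to 0.06) did not pass the threshold (adjusted p = 0.26). The brightest value of any probe set was 14.21. Whether so high a level narrows the measured change of NPM1 was not tested.

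**Figure D3:**
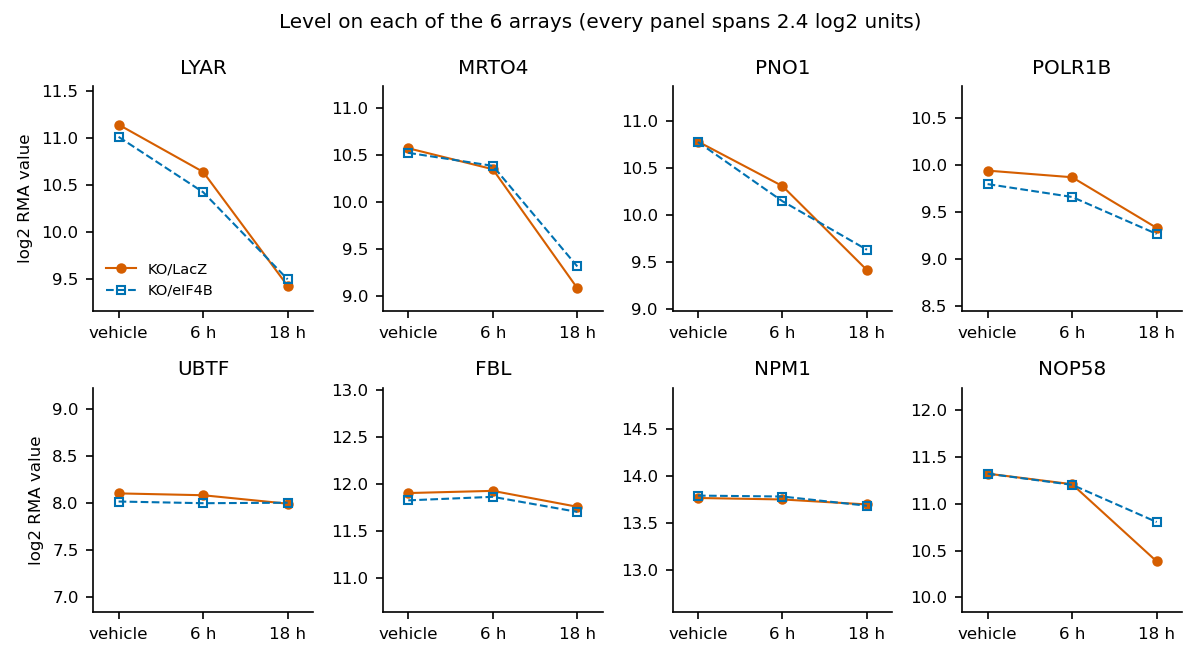
Log2 RMA intensity (vertical axes) on each of the 6 arrays for 8 members, by treatment, with filled circles for KO/LacZ and open squares for KO/eIF4B. LYAR goes from 11.15 and 11.02 under vehicle to 9.43 and 9.50 at 18 h, and UBTF lies between 7.99 and 8.10.

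The smaller called falls depended on single arrays. POLR1A, HEATR1, NAT10 and GNL3L lost their 18 h call without either vehicle array, and NOB1 without the rescued one. Without the knockout 18 h array POLR1A (adjusted p = 0.063) and GNL3L (adjusted p = 0.06) lost it too, and GNL3L also without the rescued 18 h array.

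Between 6 h and 18 h 38 of 42 genes were lower (90.5%, against 14.9% of tested genes) and 0 higher, where 19% of tested genes were higher. The fold changes of this comparison use no vehicle array, but its tests do, through the error shared by all 6 arrays, and without either vehicle array the count was 35. The median change was -0.51, from -1.17 for MRTO4 to -0.04 for UBTF. All 12 genes lower at 6 h were lower at 18 h and lower again between the times. By their brightest probe sets they were LYAR, UTP15, PNO1, WDR43, BYSL, PWP2, NIP7, LTV1, DDX21, RRS1, DDX10 and WDR3. A further 27 were lower at 18 h without passing the threshold at 6 h. Of these, 26 were lower between the times, NOB1 being the exception (-0.21, adjusted p = 0.074 by limma). These joint counts were not taken over all tested genes. The comparisons share arrays and 1 error estimate, so overlap between them is partly built in. The order vehicle above 6 h above 18 h held in both lines for 34 members, 81%, against 17.2% of tested genes. Leaving out either vehicle array or the rescued 6 h array took the 6 h count of 12 to 0, leaving out the knockout 6 h array took it to 4, and that last array also took the count between times from 38 to 13.

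Most other genes of the pathway were lower as well. Of 119 tested ribosome biogenesis genes outside the 44, 95 were lower and 3 higher at 18 h, with a median of -0.51. By role, 6 of 10 further polymerase I genes, 33 of 39 40S genes, 38 of 43 60S genes, 7 of 12 snoRNP genes and 11 of 15 exosome and decay genes were lower. The largest falls were those of RRP1 (-1.27), BRIX1 (-1.25), POLR1G (-1.22), RRP15 (-1.18) and TAF1A (-1.16). POLR1G is a polymerase I subunit and TAF1A belongs to the promoter selectivity factor SL1. PIH1D1, EFL1 and RIOK3 were higher, by 0.32, 0.29 and 0.25, and without either vehicle array 0 of the list were higher. At 6 h, 27 of the 119 were lower and 0 higher, and their median was -0.16.

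The ribosomal proteins are the parts that these factors assemble. Of 53 tested cytosolic ribosomal protein genes, 0 were lower and 2 higher at 18 h (RPL3 by 0.36, RPS9 by 0.22), with a median of 0.06, and 0 passed the threshold at 6 h in either direction. The count of higher genes was 0 without the knockout vehicle array, 8 with probe sets averaged and 19 with an intensity trend in the variance. Of 75 tested mitochondrial ribosomal protein genes, 30 were lower and 7 higher (median -0.17), with MRPL17 at -1.01 and MRPL14 at -0.86. These counts are set beside each other as descriptions, and the difference between the lists was not tested.

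**Figure D4:**
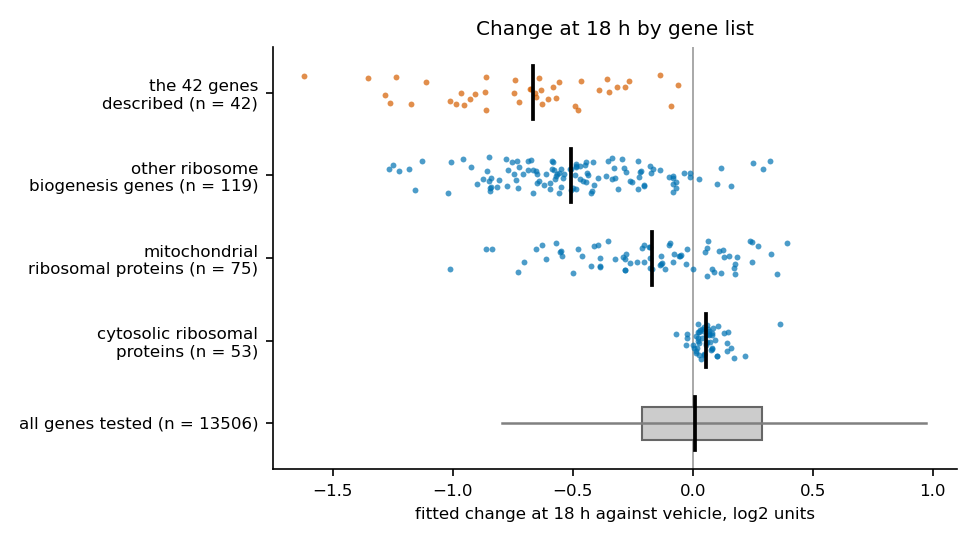
Fitted change from vehicle at 18 h in log2 units (horizontal axis), with a point for each gene of 4 lists, a box for all tested genes (quartiles, with a line from the 5th to the 95th percentile) and vertical bars for the medians. Medians were -0.66 for the members, -0.51 for other ribosome biogenesis genes, -0.17 for mitochondrial and 0.06 for cytosolic ribosomal proteins.

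On its brightest probe set, no member passed the threshold between the lines. Between knockout and rescued cells 0 of 42 genes passed (limma), where 1.06% of tested genes were lower and 1.44% higher in the knockout line. An unadjusted p under 0.05 occurred in 3 of the 42 members and in 3101 of all 13506 tested genes. The median difference, knockout minus rescued, was 0.05, and 33 of 42 fitted differences were above 0, 78.6% against 51.5% of tested genes. The 95% intervals of the 42 differences ran from -0.39 to 0.38. In 14 members the knockout array was above the rescued one in all 3 treatments, 33.3% against 25.9% of tested genes. The reverse held in 1 member, 2.38% against 21.2%. A dimmer POLR1B probe set (mean level 7.41) was higher in the knockout line by 0.36 (adjusted p = 0.045 by limma over the single-gene probe sets). The other POLR1B probe sets differed by 0.11 to 0.14 without passing.

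The widest differences were those of NOP14, POLR1A and UTP20. NOP14 read 9.31, 9.21 and 8.58 in the knockout line (vehicle, 6 h, 18 h) and 9.05, 8.97 and 8.44 in the rescued line, a fitted difference of 0.21 (SE 0.05, adjusted p = 0.11). POLR1A read 8.44, 8.42 and 8.05 in the knockout line and 8.19, 8.14 and 7.95 in the rescued line, a difference of 0.21 (SE 0.06, adjusted p = 0.12). UTP20 differed by 0.23, 0.31 and -0.06, a fitted 0.16 (SE 0.08, adjusted p = 0.31), so its 18 h pair ran the other way. With an intensity trend in the variance NOP14 alone passed, at an adjusted p of 0.046.

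The drug response of the lines was compared with a term shared by both times. For this term 0 of 42 members and 0% of all 13506 genes passed the threshold (limma), and the number with an unadjusted p under 0.05 was 0 and 302. The largest values were those of NOP58, RRP9 and MRTO4. NOP58 read 11.32 in both lines under vehicle and 11.21 and 11.20 at 6 h, but 10.38 in the knockout and 10.80 in the rescued line at 18 h. Its 18 h change was -0.94 and -0.52, and the shared term -0.21 (SE 0.21, 95% interval -0.74 to 0.33, adjusted p = 1). RRP9 changed by -1.21 and -0.82 at 18 h, with a shared term of -0.21 (SE 0.20, adjusted p = 1), and MRTO4 by -1.49 and -1.21, with -0.18 (SE 0.16, adjusted p = 1). A difference of at least 0.3 in either direction at 18 h occurred in 2 members, 4.76% against 13.1% of tested genes.

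Over the whole list, the 18 h change was further below 0 in the knockout line in 35 of 42 genes, 83.3% against 49.5% of tested genes, with medians of -0.74 and -0.59. The share was 71.4% in other ribosome biogenesis genes, 81.3% in mitochondrial and 43.4% in cytosolic ribosomal protein genes. At 6 h the medians were -0.15 in the knockout and -0.18 in the rescued line, and the knockout change was the higher in 30 genes, 71.4% against 44.2%. Before the drug, 31 of the 42 genes read higher in the knockout line, 73.8% against 52.9% of tested genes. At 6 h it was 37 genes, 88.1% against 50.3%, and at 18 h 17 genes, 40.5% against 52.1%. Under vehicle the share was 74.8% in other ribosome biogenesis genes, 66.7% in mitochondrial and 73.6% in cytosolic ribosomal protein genes. The counts at a single treatment rest on 1 pair of arrays each. The counts of change each set a drug pair beside the same vehicle pair, so they follow from the line differences of the same genes. None of these counts was tested.

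**Figure D5:**
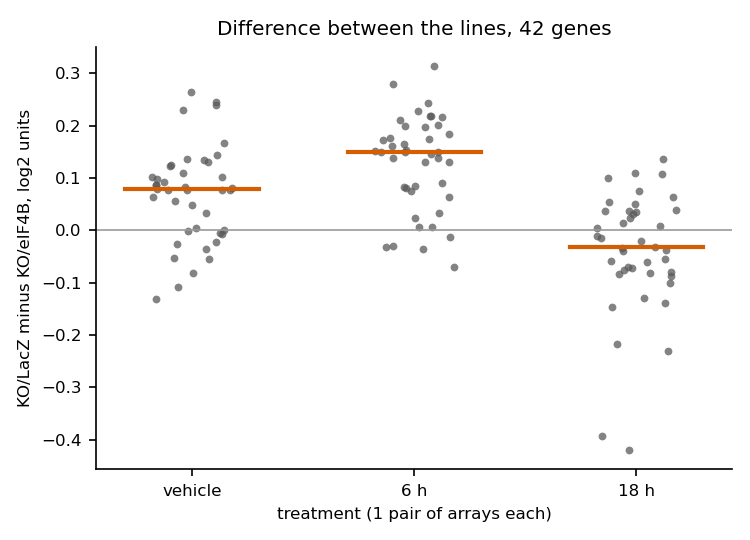
Knockout minus rescued difference in log2 units (vertical axis) of each of the 42 genes under vehicle, at 6 h and at 18 h, with the median marked. The medians are 0.08, 0.15 and -0.03, each from 1 pair of arrays.

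Further probe sets of the members could be compared in 23 genes. Of 42 other tested probe sets, 29 were lower at 18 h, 1 was higher and 12 did not pass the threshold, with p-values adjusted over 24979 single-gene probe sets. The 1 higher was the RRP12 probe set given above. Shares over all single-gene probe sets were not counted, while 23.3% of tested genes were lower at 18 h and 28.1% higher. The other PWP2 probe sets changed by 0.09 and -0.21 at 18 h, against -0.95 on the brightest, and by 0.04 and -0.01 at 6 h. The further MRTO4 probe set changed by -1.28, against -1.35 on the brightest. The further PNO1 probe sets changed by -0.72 and -1.34, against -1.26, and the smaller fall was on the one nearly as bright as the brightest (mean levels 10.06 and 10.18). At 6 h that probe set changed by -0.19 (adjusted p = 0.34 by limma) and the dimmer one by -0.68 (adjusted p = 0.0068).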

How the data were processed

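The authors deposited 1 table of linear RMA intensity values for 6 arrays. Per the submitters' processing notes it was made with RMA and the affy package, and no version is given in the sources used here. The method forces all arrays to nearly 1 distribution, which hides any shift in total mRNA. The number of arrays limits the precision. Of 54675 probe sets, 41091 carry 1 gene symbol in the platform annotation, 1801 several and 11721 none, 62 being controls. RefSeq's GRCh38.p14 gene table matched 41037 of them and changed 0 symbols.

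Log2 was taken, each gene was given its brightest probe set, and a mean level of 5 (log2) or more was required for testing. limma 3.58.1 in R 4.3.3 fitted line and treatment (lmFit and eBayes, with 2 residual and 3.19 prior degrees of freedom), and a second model added a line-by-drug term (1 residual, 4.42 prior). P-values were Benjamini-Hochberg adjusted over all tested genes, with a threshold of 0.05. The fit was tested on simulated data. Start regions came from RefSeq's promoter table, and 13 motifs were searched on both strands: the E-box CACGTG and its variants CATGTG and CACGCG, the ETS-type CCGGAAGT, the GC box GGGCGG, the CCAAT box, the TATA box TATAAA, the cyclic AMP response element TGACGTCA, the YY1-type GCCATNTTG and a second YY1-type motif that can overlap it, the NRF1 motif, and the ZBTB33-type motif with its core CTCGCGAG, which lies inside it.

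The members, role classes, lists and the naming rule were chosen with earlier results of these data known. All members may be named. Values on all arrays are given for the 8 lowest at 18 h, members not past the threshold, the largest change in each role class, and the 3 largest in size between lines and in response. Of other ribosome biogenesis genes the 5 lowest and every called higher gene are named, and of comparison lists the 2 lowest and 2 highest called. Alternatives changed the probe set choice, filter, offset, normalization, variance trend, minimum change, line term and the arrays used.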

Additional observations from a re-analysis of the deposited data

How the results depend on the processing

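Of 42 members, 39 were lower at 18 h, and 38 to 41 under every other probe set rule, filter, offset, normalization, variance or line setting, while a test for a change beyond 0.5 log2 units gave 17 (4.91% of tested genes were lower by that test). Leaving out 1 array gave 34 to 39. The 6 h count of 12 was 4 without a filter on dim genes, 5 without the line term and 0 beyond 0.5 log2 units, and 0 to 16 with 1 array left out. The 18 h against 6 h count of 38 was 2 beyond 0.5 log2 units and 13 to 35 with 1 array left out. Knockout against rescued went from 0 to 1 with an intensity trend and stayed at 0 with 1 array left out. Without any single drug-treated array, however, 0 of all tested genes passed between the lines, so those runs could not have called a member. The shared response difference stayed at 0 in each setting run, and leaving out an array left it no residual degrees of freedom. Of the single-gene values, 0 reversed in the settings run. POLR1A also lost its 18 h call without the line term (adjusted p = 0.10). FBL and NPM1 passed with an intensity trend (adjusted p = 0.011 and 0.018). The causes were not tested. The line term already pairs each drug effect within a line, and the fit without it is the unpaired one, with 23.3% of tested genes lower at 18 h with the term and 18.4% without. The labels give no replicate numbers for any further block.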

Other observations

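RNA polymerase III makes the 5S rRNA and transfer RNAs and shares POLR1C with polymerase I. It had 7 of 9 tested subunit genes lower at 18 h and 1 higher, with a median of -0.44. The shares were 77.8% and 11.1%, where 23.3% of tested genes were lower and 28.1% higher. POLR3K was lower by 1.41 log2 units. The paralogous subunits POLR3G and POLR3GL, of which a polymerase III complex holds only one, moved in opposite directions, at -1.21 and 1.76. Between the lines, 4 of the 119 other ribosome biogenesis genes were higher in the knockout line, 3.36% against 1.44% of tested genes. They were NUFIP1 by 0.41, DIS3 by 0.39, RIOK3 by 0.36 and POLR1D by 0.35 (adjusted p = 0.034, 0.035, 0.049 and 0.043 by limma). Without any single drug-treated array, no tested gene passed between the lines. Among mitochondrial ribosomal proteins the highest at 18 h were MRPS16 (0.39) and MRPL28 (0.35).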
